A study of Homo sapiens with 6 samples.

Results

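Transcript levels of the EGF-family ligands, the ERBB receptors, the receptor inhibitor ERRFI1 and the related receptor MET were compared in Huh7 cells after 24 h with carfilzomib or with the solvent DMSO. The genes were taken by symbol from the deposited table. Of 10 symbols sought, 9 have a row among the 19021 rows of the table: the ligands AREG, EREG, HBEGF and BTC, the receptors EGFR, ERBB2 and ERBB3, and ERRFI1 and MET. The ligand TGFA was not analysed here. Huh7 is an established line of human hepatocellular carcinoma cells, labelled wild type, and was grown in multi-well plates. Carfilzomib is a proteasome inhibitor, and the labels give no dose. Each group holds 3 RNA-seq libraries, DMSO replicates 1 to 3 and carfilzomib replicates 1 to 3. Whether these are separate cultures is not stated, so a p-value here speaks of the spread among libraries, which may be technical. All results come from 1 cell line, and in bulk RNA a loss of some cells and a lower level per cell cannot be told apart.

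EGF-family ligands are made as membrane-anchored precursors, and proteases of the ADAM family release them from the cell surface. AREG binds EGFR, while EREG, HBEGF and BTC bind EGFR and also ERBB4. ERBB2 has no known ligand of its own and ERBB3 has little kinase activity, so both act mainly in pairs with other receptors, and ERBB3 is a strong activator of the PI3K branch. ERRFI1, also called MIG6, binds the EGFR kinase domain and inhibits it, and its gene is induced by the pathway. MET is the receptor for hepatocyte growth factor. In liver, EGFR and MET are the main receptors through which hepatocytes receive growth signals during regeneration.

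Values are FPKM, fragment counts divided by gene length and by library total, so levels of different genes can be set side by side per length. The library totals behind them were 38386581 to 39651170 reads, recovered from the FPKM values, and 11153 genes with a mean of at least 1 FPKM were tested. Pearson's r of log2(FPKM + 1) across these genes was 0.997 to 0.998 within groups and 0.912 to 0.916 between them, computed across genes, which are not independent. Replicate libraries differed beyond counting noise (chi-square per degree of freedom 3.68 to 6.89). Separate preparations of the same culture could differ so too, so this cannot show whether the libraries are separate cultures. Each library was taken as a replicate. All 8 hepatocyte and liver cancer markers sought had levels above 1 FPKM, and their summed level was 9302 to 9603 FPKM with DMSO and 4185 to 4251 with carfilzomib. Of 5 fibroblast and stellate-cell markers, 4 stayed under 1 FPKM in every library, COL1A2 being the exception, and the summed level was 6.48 to 7.06 FPKM with DMSO and 4.16 to 4.34 with carfilzomib. Of the 3 endothelial markers with a row, VWF and CDH5 stayed under 1 FPKM, and the sum was 3.74 to 4.33 and 2.38 to 2.97 FPKM. Of the 2 blood-cell markers with a row, PTPRC stayed under 1 FPKM and CD68, also a lysosomal gene of many cells, made up nearly all of a sum of 32.9 to 33.6 FPKM with DMSO and 46.3 to 47.2 with carfilzomib. The part of these shifts in the results below was not tested.

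All 9 genes differed between carfilzomib and DMSO, in both directions. HBEGF rose most, and AREG, ERRFI1, EGFR and MET were raised by smaller amounts, while ERBB3, EREG, ERBB2 and BTC fell. With limma on log2(FPKM + 1) and Benjamini-Hochberg adjustment over all tested genes, 9 of 9 genes passed an adjusted p of 0.05, 5 higher and 4 lower. Among all 11153 tested genes 81.6% passed, 36.7% higher and 44.9% lower, so passing the test does not set these genes apart. On the log2(FPKM + 1) scale, 1 of the 9 was at least 2-fold higher and 2 were at least 2-fold lower, where 5.28% and 7.84% of all tested genes were. This scale compresses low genes: in mean FPKM itself, 1 was at least 2-fold higher and 4 (ERBB3, EREG, BTC and ERBB2) were at least 2-fold lower. The share of all tested genes by that measure was not computed, and the percentages above do not apply to it. The 3 carfilzomib values lay outside the range of the 3 DMSO values in 9 of 9 genes, as in 82.8% of all tested genes. The median log2 difference of the 9 was 0.16, beside -0.07 over all tested genes, and the median size without sign was 0.65 beside 0.40. BTC passed the filter through its DMSO level, and the members were chosen with earlier results known, so these counts are descriptions.

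**Figure D1:**
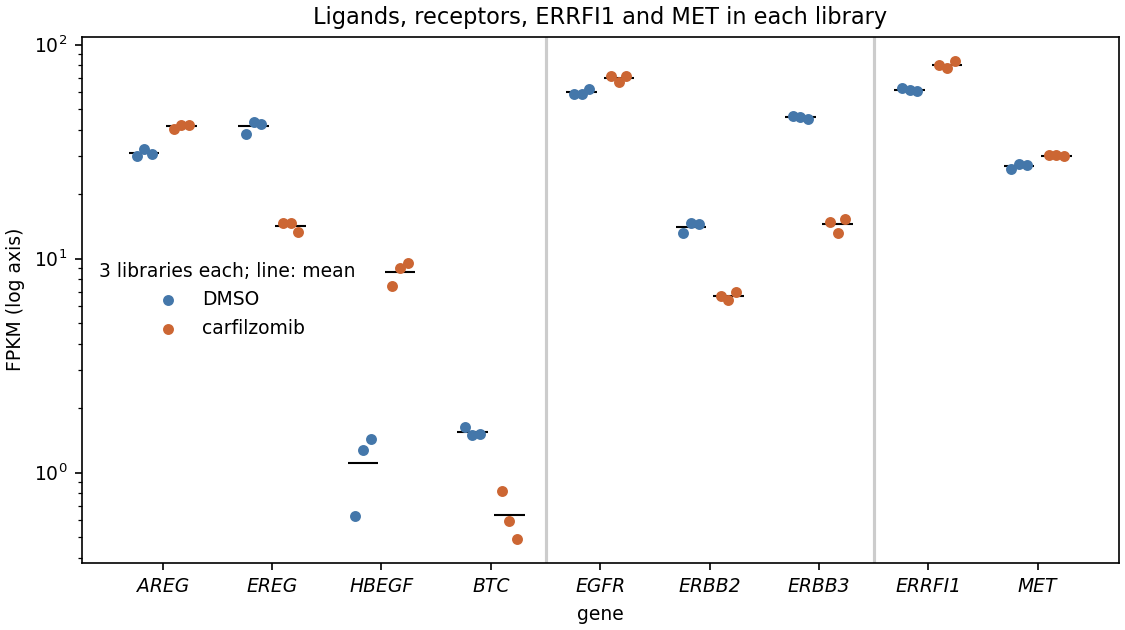
FPKM of each gene on a log axis in the 3 DMSO and the 3 carfilzomib libraries, with a black line at each group's mean, ordered as ligands, receptors, and ERRFI1 with MET. The groups are apart in every gene, with HBEGF rising from 1.11 to 8.67 FPKM on average and ERBB3 falling from 45.7 to 14.5.

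Among the 4 ligands, EREG, which encodes epiregulin, had the highest level with DMSO. Its levels were 38.3, 43.7 and 42.5 FPKM with DMSO and 14.7, 14.7 and 13.3 FPKM with carfilzomib. All 3 treated libraries were below the lowest control. The mean went from 41.5 ± 2.84 to 14.3 ± 0.837 FPKM (SD, n = 3), 0.344 times the control, and the log2 difference was -1.48 (limma SE 0.0566, adjusted p = 5.70e-09). Of all tested genes, 2.62% fell further. The values rest on 6939 to 7983 reads per DMSO library and 2397 to 2667 per carfilzomib library.

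AREG, which encodes amphiregulin, moved the other way. Its levels were 30.2, 32.6 and 31.0 FPKM with DMSO and 40.4, 42.2 and 42.1 FPKM with carfilzomib. The lowest treated library was above the highest control, and the spread within each group was small beside the shift. On average it went from 31.2 ± 1.22 to 41.6 ± 1.01 FPKM (SD, n = 3), 1.33 times the control, with a log2 difference of 0.40 (limma SE 0.0373, adjusted p = 3.74e-06). Of all tested genes, 78.8% had a lower log2 difference than AREG.

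HBEGF, which encodes heparin-binding EGF-like growth factor, was barely expressed with DMSO and had the largest change of the 9 genes. Its levels were 0.626, 1.27 and 1.43 FPKM with DMSO and 7.49, 9.03 and 9.49 FPKM with carfilzomib. DMSO replicate 1 had the lowest count, 58 reads against 119 and 134 in the other controls, while the treated libraries had 692, 817 and 875. The mean went from 1.11 ± 0.428 to 8.67 ± 1.05 FPKM (SD, n = 3), 7.80 times the control. The log2 difference was 2.21 (limma SE 0.141, adjusted p = 2.20e-07) and ranked 83 from the highest among the 11153 tested genes. The added pseudocount of 1 FPKM understates so low a gene: the log2 difference was 2.92 with a pseudocount of 0.1, 1.16 with a pseudocount of 5, and 3.09 with limma-voom on the recovered reads. Without DMSO replicate 1 it was 2.03.

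BTC, which encodes betacellulin, was low in both groups. Its levels were 1.63, 1.50 and 1.52 FPKM with DMSO and 0.816, 0.596 and 0.490 FPKM with carfilzomib, from 255 to 274 and from 82 to 137 reads. The groups were apart, with a mean of 1.55 ± 0.0679 against 0.634 ± 0.166 FPKM (SD, n = 3), 0.409 times the control. The log2 difference was -0.65 (limma SE 0.0850, adjusted p = 5.15e-05), -0.22 with a pseudocount of 5, -1.19 with 0.1 and -1.25 with limma-voom on reads, so whether BTC counts as 2-fold lower depends on the pseudocount. The mean over all 6 libraries was 1.09 FPKM, just above the filter, and without DMSO replicate 1 the gene fell under it and was not tested.

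EREG and AREG are direct neighbours on human chromosome 4, between EPGN and BTC, in the order of protein-coding genes MTHFD2L, EPGN, EREG, AREG, BTC and PARM1 in the RefSeq gene table. Within this row of genes EREG and BTC fell and AREG rose. PARM1, a mucin-like membrane protein gene, had 11.3 and 3.20 FPKM with DMSO and carfilzomib and was also called lower, MTHFD2L had 1.32 and 1.35 FPKM and was not called, and the ligand gene EPGN was near 0 in both groups. The promoters of this oppositely moving pair are shown because they sit side by side, with that of HBEGF, which rose most, and that of ERBB2, a receptor gene that fell and whose window holds matches to 2 of the searched motifs. Each is the 250 bases before the RefSeq start site on the gene's own strand, build GRCh38.p14, written 5′ to 3′, with matches to the searched motifs in capitals. AREG is chr4:74444886-74445135 on the + strand, EREG chr4:74364895-74365144 on the + strand, HBEGF chr5:140346604-140346853 on the - strand and ERBB2 chr17:39687844-39688093 on the + strand.
AREG: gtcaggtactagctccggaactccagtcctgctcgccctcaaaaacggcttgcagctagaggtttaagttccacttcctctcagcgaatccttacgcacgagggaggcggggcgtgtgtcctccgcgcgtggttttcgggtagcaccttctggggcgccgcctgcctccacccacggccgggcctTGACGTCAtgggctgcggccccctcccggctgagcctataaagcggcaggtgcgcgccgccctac
EREG: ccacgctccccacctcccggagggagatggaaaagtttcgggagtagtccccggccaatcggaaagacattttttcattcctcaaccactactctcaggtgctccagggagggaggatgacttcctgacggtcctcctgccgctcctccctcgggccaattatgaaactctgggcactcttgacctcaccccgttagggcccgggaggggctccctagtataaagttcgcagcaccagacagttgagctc
HBEGF: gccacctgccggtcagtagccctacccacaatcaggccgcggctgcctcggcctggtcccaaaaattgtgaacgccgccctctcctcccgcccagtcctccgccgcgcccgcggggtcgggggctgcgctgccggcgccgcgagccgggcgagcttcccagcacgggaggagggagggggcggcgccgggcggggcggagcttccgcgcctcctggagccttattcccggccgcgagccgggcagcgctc
ERBB2: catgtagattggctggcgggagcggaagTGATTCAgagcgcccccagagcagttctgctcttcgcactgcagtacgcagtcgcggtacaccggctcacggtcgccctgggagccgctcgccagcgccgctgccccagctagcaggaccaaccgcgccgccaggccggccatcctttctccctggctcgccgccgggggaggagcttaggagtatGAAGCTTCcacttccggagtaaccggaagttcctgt

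The motifs searched on both strands were TGACGTCA (the cyclic AMP response element), TGANTCA and GAANNTTC (a pair of heat shock factor half-sites), none of whose matches overlapped. TGANTCA takes in the AP-1 site, which has C or G in the middle, but also allows A or T there. AREG held TGACGTCA at -65 to -58 from the start site, a motif in 1.65% of 35116 RefSeq windows of this length. ERBB2 held TGATTCA at -222 to -216 and GAAGCTTC at -36 to -29, and TGANTCA was in 6.57% and GAANNTTC in 5.78% of all windows. PGAP3 overlaps ERBB2 on the opposite strand in the annotation, and whether these matches lie within PGAP3 was not examined. The EREG and HBEGF windows held no match to any of these letters. Windows were found for 8 of the 9 genes, 9 windows in all because EGFR has 2. The second EGFR window held TGAGTCA at -232 to -226 and TGACTCA at -136 to -130. Both have C or G in the middle, unlike TGATTCA in ERBB2. The first EGFR window and those of BTC, ERRFI1 and MET held no match. The share of G and C was 65.2% for AREG, 58.0% for EREG, 76.4% for HBEGF and 65.6% for ERBB2, beside a median of 58.0% over all windows. A match is a description of the letters and was not set against any binding data.

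Because the ligands moved in opposite directions, their make-up changed more than their sum. The summed level of AREG, EREG, HBEGF and BTC was 70.7, 79.0 and 76.4 FPKM with DMSO and 63.5, 66.6 and 65.4 FPKM with carfilzomib, a ratio of 0.864. The ligand gene EGF, at a mean of 2.55 FPKM with DMSO and 6.19 with carfilzomib, is left out of this sum. EREG supplied 55.0 ± 0.761% of that sum with DMSO and 21.9 ± 1.47% with carfilzomib, while AREG supplied 41.5 ± 1.09% and 63.8 ± 0.519% and HBEGF 1.46 ± 0.513% and 13.3 ± 1.38% (SD, n = 3). The ratio of AREG to EREG, which does not depend on how libraries are scaled, was 0.788, 0.745 and 0.729 with DMSO and 2.74, 2.87 and 3.17 with carfilzomib. In FPKM, EREG was above AREG in every control library, and AREG was above EREG in every treated library. In reads, not divided by length, EREG stayed above AREG in every library. In all, 17 sums, shares and ratios were compared by an exact two-sided permutation test, whose smallest possible p with 3 against 3 libraries is 0.1. That value was reached by 16 of them (Benjamini-Hochberg adjusted 0.106).

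**Figure D2:**
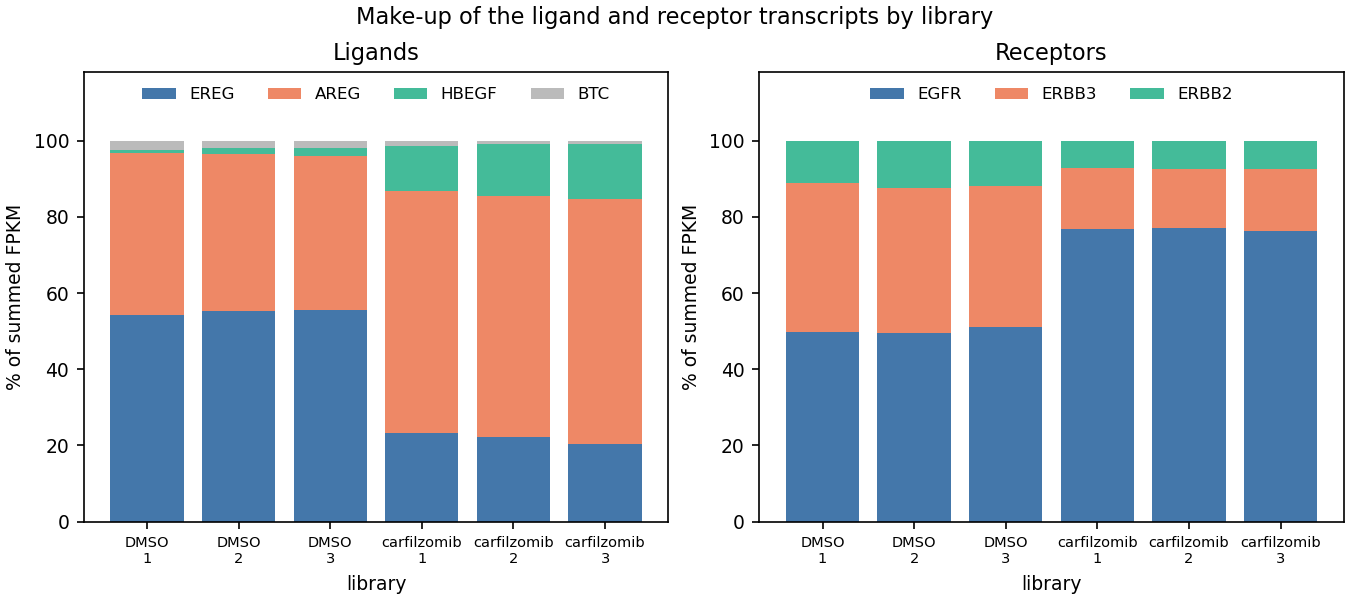
Share of each gene in the summed FPKM of the 4 ligands (left) and of the 3 receptors (right), as stacked bars, in each of the 6 libraries. EREG goes from 55.0% to 21.9% of the ligand sum on average, and EGFR from 50.1% to 76.8% of the receptor sum.

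Among the receptors, ERBB3 and ERBB2 fell and EGFR rose slightly. ERBB3 had 46.4, 45.7 and 45.1 FPKM with DMSO and 14.8, 13.2 and 15.3 FPKM with carfilzomib. The treated libraries lay close together and far below the controls. The mean went from 45.7 ± 0.628 to 14.5 ± 1.10 FPKM (SD, n = 3), 0.316 times the control, the largest fall of the 9 genes. The log2 difference was -1.60 (limma SE 0.04996, adjusted p = 1.52e-09), and 1.95% of all tested genes fell further. In the GENCODE release 29 annotation the protein-coding gene AC034102.2 overlaps ERBB3 on the same strand. It was not analysed here, and whether reads are shared was not examined.

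ERBB2 had 13.2, 14.6 and 14.5 FPKM with DMSO and 6.68, 6.39 and 6.95 FPKM with carfilzomib. Every treated library was below every control. The mean went from 14.1 ± 0.781 to 6.67 ± 0.280 FPKM (SD, n = 3), 0.473 times the control, with a log2 difference of -0.98 (limma SE 0.0513, adjusted p = 5.26e-08), just short of the 2-fold line on this scale. On the same scale the difference was -1.07 with a pseudocount of 0.1 and -0.71 with a pseudocount of 5. In the GENCODE release 29 annotation ERBB2 overlaps MIEN1 and PGAP3 on the opposite strand, and both were also lower (15.6 ± 1.55 to 10.1 ± 0.543 and 2.89 ± 0.199 to 1.72 ± 0.199 FPKM). The library kit marks strand, but nothing states whether the counting used strand, so shared reads are possible.

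EGFR, the most abundant of the receptors, had 59.0, 59.0 and 62.2 FPKM with DMSO and 71.3, 66.5 and 71.5 FPKM with carfilzomib. The groups did not overlap, and the gap between them was wider than the range of the controls and narrower than that of the treated libraries. The mean went from 60.0 ± 1.85 to 69.8 ± 2.82 FPKM (SD, n = 3), 1.16 times the control, with a log2 difference of 0.21 (limma SE 0.0378, adjusted p = 4.40e-04). EGFR-AS1, an antisense transcript that overlaps EGFR, was higher too, at 2.30 ± 0.529 and 4.00 ± 0.421 FPKM, and the same limit on strand applies.

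The balance between the receptors shifted toward EGFR. EGFR made up 50.1 ± 0.861% of the summed level of the 3 receptors with DMSO and 76.8 ± 0.490% with carfilzomib, ERBB3 38.2 ± 1.04% and 15.9 ± 0.499%, and ERBB2 11.8 ± 0.574% and 7.34 ± 0.123% (SD, n = 3). The sum itself went from 120 ± 1.68 to 90.9 ± 4.17 FPKM. The ratio of EGFR to ERBB3 was 1.27, 1.29 and 1.38 with DMSO and 4.80, 5.02 and 4.66 with carfilzomib, apart in every library. The ratio of ERBB2 to ERBB3 was 0.285, 0.321 and 0.321 with DMSO and 0.450, 0.483 and 0.453 with carfilzomib, so ERBB3 fell relative to ERBB2 as well.

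ERRFI1 rose with treatment and had the highest mean FPKM of the 9 genes in both groups. In reads, not divided by length, EGFR was above ERRFI1 in every library. It had 62.4, 61.5 and 60.5 FPKM with DMSO and 80.0, 77.8 and 84.1 FPKM with carfilzomib. ERRFI1 went on average from 61.5 ± 0.947 to 80.6 ± 3.22 FPKM (SD, n = 3), 1.31 times the control, with a log2 difference of 0.39 (limma SE 0.0345, adjusted p = 2.85e-06). The ratio of ERRFI1 to EGFR was 1.06, 1.04 and 0.973 with DMSO and 1.12, 1.17 and 1.18 with carfilzomib, so the inhibitor rose slightly more than its target in these libraries. AL034417.4, an antisense transcript on the opposite strand, overlaps ERRFI1. It was not analysed here, and whether reads are shared was not examined.

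MET showed the smallest change. It had 26.3, 27.6 and 27.4 FPKM with DMSO and 30.4, 30.4 and 30.1 FPKM with carfilzomib. The groups did not overlap, and the treated libraries were nearly equal. MET went on average from 27.1 ± 0.693 to 30.3 ± 0.145 FPKM (SD, n = 3), 1.12 times the control, with a log2 difference of 0.16 (limma SE 0.0326, adjusted p = 0.00139). Of all tested genes, 79.0% had a larger difference in either direction. The ratio of MET to EGFR was 0.446, 0.468 and 0.441 with DMSO and 0.426, 0.456 and 0.421 with carfilzomib, and the groups overlapped (exact two-sided permutation p = 0.3).

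**Figure D3:**
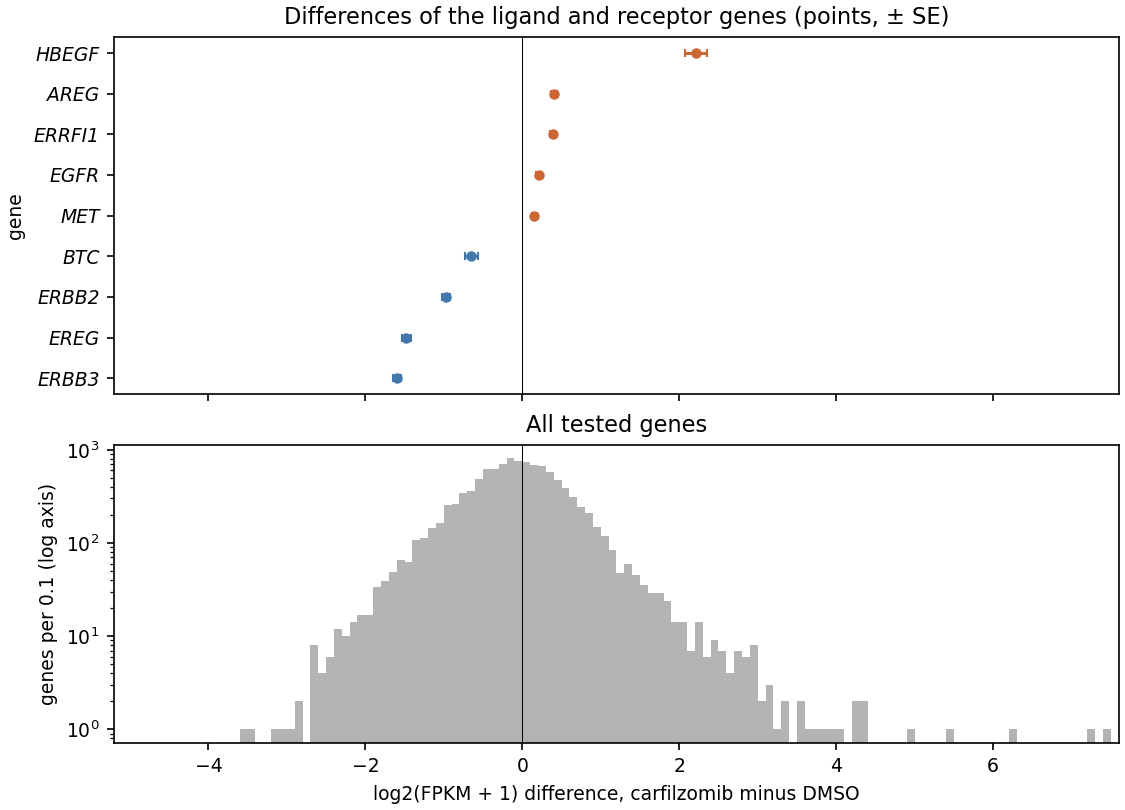
Log2(FPKM + 1) difference of each of the 9 genes, carfilzomib minus DMSO, as points with bars of 1 SE from limma (top), above a histogram of the same difference over the 11153 tested genes on a log count axis (bottom). HBEGF at 2.21, ERBB3 at -1.60 and EREG at -1.48 lie in the tails of the histogram but inside its edges. HBEGF ranked 83 from the highest, and ERBB3 and EREG ranked 219 and 293 from the lowest. MET, EGFR, ERRFI1 and AREG lie nearer its centre.

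With these shifts the order of levels changed. With DMSO the order from the highest mean was ERRFI1, EGFR, ERBB3, EREG, AREG, MET, ERBB2, BTC and HBEGF, in FPKM, and only the ranges of ERRFI1 and EGFR overlapped among neighbours. With carfilzomib it was ERRFI1, EGFR, AREG, MET, ERBB3, EREG, HBEGF, ERBB2 and BTC, and only ERBB3 and EREG overlapped among neighbours. HBEGF thus went from below BTC to above ERBB2, and ERBB3 and EREG went from above AREG to below MET.

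Of the other EGF-family genes, EGF alone was high enough to test. DMSO libraries averaged 2.55 ± 0.169 FPKM and carfilzomib libraries 6.19 ± 0.272 (SD, n = 3), 2.42 times the control, a log2 difference of 1.02 (limma SE 0.0582, adjusted p = 9.85e-08). The neuregulins NRG1, NRG3 and NRG4, ligands of ERBB3 and ERBB4, were all under 1 FPKM in every library and were not tested. Their reads were divided by long lengths, 19608, 11606 and 24216 bases. NRG3 had 58 reads in all DMSO libraries together and 332 in all carfilzomib libraries, and NRG4 had 218 and 551. ERBB4, the receptor for the neuregulins and several EGFR ligands, had 2, 0 and 0 reads with DMSO and 13, 9 and 16 with carfilzomib, a depth-adjusted ratio of 19.3 with a 95% exact interval of 4.99 to 165 that covers counting error only. EPGN had 6 and 8 reads in all, and NRG2 was not analysed here.

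Genes that release the ligands from the membrane moved both ways, with 4 of 6 tested genes higher and 2 lower. Among all tested genes, 36.7% were called higher and 44.9% lower. ADAM17, the main sheddase of AREG, EREG and HBEGF, went from 7.03 ± 0.353 to 13.1 ± 0.370 FPKM (log2 difference 0.81, limma SE 0.0472, adjusted p = 1.10e-07). RHBDF1, which encodes iRhom1, a partner needed for ADAM17 maturation, went from 3.98 ± 0.108 to 7.83 ± 0.272 FPKM. The related RHBDF2 went from 2.69 ± 0.226 to 1.84 ± 0.0458, and ADAM10, the main sheddase of BTC and EGF, from 20.3 ± 0.245 to 16.8 ± 0.121 FPKM. The ADAM10 and RHBDF2 falls were -0.26 and -0.38 on the log2 scale (adjusted p = 4.31e-05 and 3.70e-04 by limma).

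Genes downstream of the receptors moved both ways. Of 16 adaptors and members of the RAS-ERK cascade, 5 were higher, 8 lower and 3 not called (HRAS, PTPN11 and SOS2), with a median log2 difference of -0.15. Over all tested genes 81.6% were called, 36.7% higher and 44.9% lower, so these counts do not set the list apart. SHC1, an adaptor that binds phosphorylated receptors, went from 33.5 ± 0.518 to 81.7 ± 1.29 FPKM (log2 difference 1.26, limma SE 0.0293, adjusted p = 2.68e-10), and the kinase gene MAP2K1, which encodes MEK1, from 24.3 ± 1.14 to 50.3 ± 0.479. MAPK3, which encodes ERK1, fell from 16.4 ± 0.679 to 8.06 ± 0.715 FPKM, and the docking protein gene GAB1 from 3.55 ± 0.204 to 1.59 ± 0.0977. With quantile normalization 3 of the 16 were called higher, since GRB2 and MAP2K2 lost their small rises (adjusted p of GRB2 0.131).

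Of 7 genes of the PI3K branch, 1 was higher and 6 lower, beside 36.7% and 44.9% of all tested genes. PIK3R2, a regulatory subunit of PI3K, fell from 49.2 ± 1.25 to 22.1 ± 0.607 FPKM (log2 difference -1.12, limma SE 0.0350, adjusted p = 1.48e-09), and the kinase gene AKT1 from 27.1 ± 0.290 to 17.2 ± 0.566. The rise of the catalytic subunit gene PIK3CB was small, from 11.9 ± 0.181 to 13.0 ± 0.143 FPKM. With median-of-ratios scaling, TPM or quantile normalization, 4 of the 7 were called lower, as was the case without DMSO replicate 3.

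Of 11 tested genes that switch receptors off or clear them, 6 were higher, 3 lower and 2 not called (LRIG1 and SOCS5). Of all tested genes, 36.7% were called higher and 44.9% lower, and 81.6% in either direction. Without DMSO replicate 1 or without carfilzomib replicate 3, 4 of the list were called higher, since CBL and USP8 lost their small rises. CBLB, a ubiquitin ligase of activated receptors, went from 3.29 ± 0.233 to 7.13 ± 0.311 FPKM (log2 difference 0.92, limma SE 0.0579, adjusted p = 1.99e-07), and PTPN1, a tyrosine phosphatase, from 28.7 ± 0.765 to 45.6 ± 0.609. RNF41, which encodes NRDP1, the ubiquitin ligase that acts on ERBB3, fell from 13.5 ± 0.269 to 9.78 ± 0.0640, and the phosphatase gene PTPN2 from 12.7 ± 0.0750 to 8.33 ± 0.227.

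For MET, 5 of the 9 genes with a row that were listed for its axis were high enough to test. HGF was not analysed here, and MST1R, HGFAC, ST14 and SPINT2 were under the filter. Of 5 tested, 1 was higher, 3 lower and 1 (SPINT1) not called, with GAB1, which docks to MET, and GRB2, its adaptor, counted here again. Of all tested genes, 36.7% were called higher and 44.9% lower. MST1, which encodes macrophage-stimulating protein, a relative of hepatocyte growth factor, went from 6.23 ± 0.120 to 4.18 ± 0.355 FPKM (log2 difference -0.48, adjusted p = 2.89e-05 by limma). GRB2 had 53.1 ± 1.20 and 56.9 ± 0.424 FPKM.

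Transcripts widely used as a readout of ERK activity also split. Of 9 tested, 5 were higher, 3 lower and 1 (SPRY2) not called, with a median log2 difference of 0.14. Of all tested genes, 36.7% were called higher and 44.9% lower. DUSP6, counted as higher, had overlapping groups and was not called in 7 of 17 alternatives. EPHA2, a receptor tyrosine kinase gene, went from 40.4 ± 1.31 to 76.3 ± 0.787 FPKM and the feedback inhibitor gene SPRY4 from 7.28 ± 0.276 to 10.5 ± 0.646. The ETS factor genes ETV4 and ETV5 fell from 27.0 ± 1.14 to 19.3 ± 0.866 and from 19.3 ± 0.407 to 15.0 ± 0.783 FPKM.

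**Figure D4:**
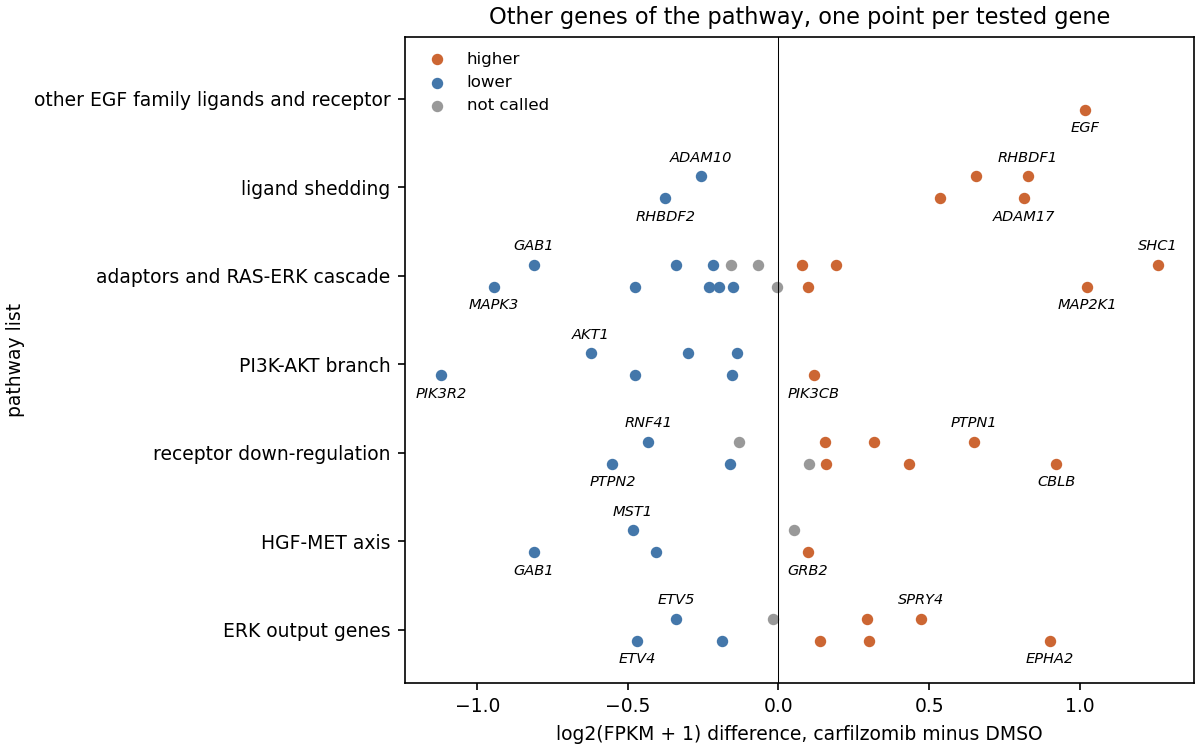
Log2(FPKM + 1) difference, carfilzomib minus DMSO, of every tested gene in each pathway list, with genes called higher, lower or not called by limma in different colours and the genes named by rule labelled. Each list with more than 1 tested gene has members on both sides of 0, from PIK3R2 at -1.12 to SHC1 at 1.26.

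The genes whose profiles over the 6 libraries lay closest to those of the most changed members were found by Euclidean distance between centred log2(FPKM + 1) profiles. Nearest to HBEGF were OLR1, a scavenger receptor gene (distance 0.309, 1.31 ± 0.224 to 9.28 ± 0.466 FPKM), RGCC (0.361) and MAFF (0.387). Nearest to ERBB3 were PSPH, an enzyme of serine synthesis (0.0737), BAMBI, a decoy receptor for TGF-beta ligands (0.102), and ZFPM1 (0.103). Nearest to EREG were SLC2A2, the hepatocyte glucose transporter (0.0826, 2.69 ± 0.278 to 0.324 ± 0.0800 FPKM), KIF20A, a mitotic kinesin (0.1004), and A1CF (0.113). With 2 groups only, such likeness reflects mainly the size of the difference between the groups on this scale. The scale compresses low genes such as SLC2A2 and ZFPM1, so ratios of FPKM can differ between near profiles.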

How the data were processed

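Total RNA of 6 Huh7 libraries was made into stranded mRNA libraries, per the labels' protocols. The authors deposited 1 table of FPKM values. Tools listed without role or order in the submitters' processing notes are DESeq2, HTSeq, HISAT2, fastp and R 3.2.0. They also list GRCm39, a mouse build, while 18164 of 19021 row names are current human symbols in the RefSeq gene table. Coordinates are therefore given only for RefSeq promoter sequences. Whole reads were recovered from the FPKM ratios in 19018 rows (99.98%, relative tolerance 1e-12), which gave the library totals. The 3 other rows are of genes not described here.

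Groups and replicate numbers came from the labels. The test was limma 3.58.1 in R 4.3.3 (mean-variance trend, two-sided) on log2(FPKM + 1) over genes with a mean of at least 1 FPKM, Benjamini-Hochberg adjusted, with an adjusted p under 0.05 as a call. Differences on this scale understate changes of low genes. The fit and the read recovery were tested on simulated data. For limma-voom, libraries were scaled by trimmed means of M values. Alternatives were other pseudocounts, filters, scalings, variance models, the replicate number as a block, limma-voom on the recovered reads and each library left out, 17 in all. In each pathway list the 2 genes called with the largest rise and the 2 with the largest fall were named, and 3 nearest genes for each of the 3 most changed members. A list gene is not reported here. Genes and lists were chosen with earlier results of these data known. Intervals cover counting error only.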

Additional observations from a re-analysis of the deposited data

How the results depend on the processing

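All 9 genes kept their direction and their call in each of the 17 alternatives in which they were tested. HBEGF and BTC were not tested with a mean of at least 5 FPKM, nor BTC without DMSO replicate 1. Log2 differences ranged from 0.36 to 0.49 for AREG, -1.53 to -1.27 for EREG, 1.16 to 3.09 for HBEGF, -1.25 to -0.22 for BTC, 0.17 to 0.30 for EGFR, -1.07 to -0.71 for ERBB2, -1.66 to -1.38 for ERBB3, 0.32 to 0.48 for ERRFI1 and 0.13 to 0.24 for MET. Over all genes, 3246 were called lower with a mean of at least 5 FPKM, since fewer genes were tested (7375). With 1 library left out, 3916 to 4032 genes were called higher and 4791 to 4960 lower. Median-of-ratios scaling moved the median difference of all genes by 0.08 and gave 4652 higher and 4418 lower. No pairing by replicate number was seen (correlations of same-numbered deviations -0.01, -0.00341 and 0.01). These values cannot show whether same-numbered libraries were prepared together. The fit with the replicate number as a block called 4059 genes higher and 4995 lower, with 5 and 4 of the 9. Depth limits NRG3, EPGN and ERBB4, which had few reads.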
